A study of Mus musculus with 22 samples.

Results

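The milk protein genes described here are 9 genes chosen by symbol as those for the caseins, whey proteins and milk-fat-globule proteins of the mouse: Csn1s1, Csn1s2a, Csn2, Csn3, Wap, Lalba, Btn1a1, Xdh and Ltf. All 9 were found among the 52526 distinct gene symbols measured. RNA came from the left 4th mammary tissue of 22 female C57BL/6J mice, 7 to 8 weeks old, engrafted with 100000 EO771 cells, a mammary cancer line of the same strain that here also carried firefly luciferase. Each mouse had a running wheel, or only the wheel's hub as a sedentary control, for 2 weeks before engraftment, and received liposomes holding buffer (PBS) or clodronate, a drug that kills the phagocytes taking the liposomes up, 24 hours before engraftment and again with it. Tissue was collected 24 hours after engraftment, so that all 22 samples come from engrafted, liposome-treated mice, and none is untreated mammary gland. How much RNA of engrafted cells each sample held was not measured. The groups were control PBS and wheel PBS, with 6 mice each, and control clodronate and wheel clodronate, with 5 mice each. No source used here describes any of the mice as pregnant or lactating.

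In lactation the alveolar cells of the luminal mammary epithelium secrete the caseins, which pack calcium and phosphate into micelles, together with the whey proteins and fat globules of milk. Prolactin drives this program through its receptor, the kinase JAK2 and the transcription factor STAT5, while glucocorticoids act beside it. Outside pregnancy the ducts of the gland lie in a fat pad, and the secretory genes are mostly silent. Several proteins of milk also have work outside it: xanthine dehydrogenase degrades purines in many cell types, and lactoferrin is an iron-binding antimicrobial protein of other secretions and of neutrophil granules.

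The 4 casein genes lie together on mouse chromosome 5 (GRCm38, GENCODE M21), within 266 kb that hold 7 protein-coding genes. Csn1s1 (αS1-casein) is at chr5:87666208-87682578 on the plus strand, Csn2 (β-casein) at chr5:87692624-87699630 on the minus strand, Csn1s2a (an αS2-casein) at chr5:87774567-87788797 on the plus strand, and Csn3 (κ-casein) at chr5:87925579-87932665 on the plus strand. Wap (whey acidic protein) is at chr11:6635482-6638637, Lalba (α-lactalbumin, the partner of the galactosyltransferase in making lactose) at chr15:98480400-98482721, Btn1a1 (butyrophilin of the milk fat globule membrane) at chr13:23456992-23465901 and Xdh (xanthine dehydrogenase, the binding partner of butyrophilin on the globule) at chr17:73883895-73950196, all on the minus strand. Ltf (lactoferrin) is at chr9:111019271-111042767 on the plus strand.

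RefSeq promoter windows (GRCm38.p6) were on hand for 6 of the 9 genes, of which 3 are shown for the contrast in expression described next: Csn1s1 and Csn2 were never above the detection floor, while Ltf was measured in every mouse. Each line gives the 250 bases before the RefSeq transcription start, 5′ to 3′ on the gene's strand, at chr5:87665958-87666207 (plus), chr5:87699426-87699675 (minus) and chr9:111019042-111019291 (plus). Capitals mark each match to TTCNNNGAA, the letters of a STAT5-type element, which are the same on both strands.
Csn1s1: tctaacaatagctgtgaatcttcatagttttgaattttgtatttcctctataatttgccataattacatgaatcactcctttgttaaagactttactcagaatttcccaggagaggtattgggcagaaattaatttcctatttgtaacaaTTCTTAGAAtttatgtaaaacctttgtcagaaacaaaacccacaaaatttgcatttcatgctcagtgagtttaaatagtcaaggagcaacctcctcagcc
Csn2: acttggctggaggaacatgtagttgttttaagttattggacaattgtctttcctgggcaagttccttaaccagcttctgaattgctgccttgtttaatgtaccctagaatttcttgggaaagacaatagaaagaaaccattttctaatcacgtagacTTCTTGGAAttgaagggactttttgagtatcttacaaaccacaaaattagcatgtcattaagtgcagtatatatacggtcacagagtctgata
Ltf: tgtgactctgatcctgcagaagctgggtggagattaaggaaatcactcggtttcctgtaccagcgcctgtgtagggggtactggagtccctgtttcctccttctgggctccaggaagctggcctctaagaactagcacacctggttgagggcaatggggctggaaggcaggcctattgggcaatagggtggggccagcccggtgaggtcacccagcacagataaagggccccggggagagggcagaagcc
The match is TTCTTAGAA in the Csn1s1 window, starting 100 bases before the start site, and TTCTTGGAA in the Csn2 window, starting 93 bases before it. The windows of Ltf, Csn1s2a, Wap and Lalba hold no match to these letters. Of 32851 promoter windows of this length in the RefSeq table, 2306 (7.02%) hold at least 1 match.

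Libraries were made with QuantSeq 3′ FWD, which gives about 1 read per transcript from its 3′ end, so that levels can be set side by side between genes whatever their length. The deposited values are CPM (read counts scaled to a common total) with every value below 1 raised to 1, called the floor here. Libraries held 13256467 to 20484578 reads, so that the floor stands for no more than 13 reads in the shallowest library and 20 in the deepest. In all, 33357 of the symbols were at the floor in every mouse. By their lymphocyte markers 5 mice stood apart, control PBS 2, wheel PBS 3 and wheel clodronate 3, 4 and 5, with a marker score above 3 where the other 17 mice lay at or below 1.42. The tissue carried the markers its label calls for. All 10 luminal epithelium markers were above the floor in at least 1 mouse, and 7 of them in every mouse (among these Krt8 8.38 to 51.8 CPM, Krt18 34.9 to 213 CPM). The adipocyte marker score, the mean log2(CPM + 1) of 8 genes, was 9.20 to 10.6.

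Only 4 of the 9 milk protein genes passed the filter on low values, which asked for a value above the floor in at least 5 mice. Csn1s1, Csn2 and Wap were at the floor in all 22 mice, so that any transcript of theirs was not detectable at this depth. Csn1s2a was above the floor in 1 mouse, control PBS 2, at 1.71 CPM (28 reads). Lalba was above it in 2 mice, control PBS 5 at 2.30 CPM (40 reads) and wheel PBS 5 at 7.18 CPM (98 reads). None of those 3 mice had a second member of these 5 genes above the floor. These 5 genes did not enter the main comparisons of groups. With no filter on low values Csn1s2a and Lalba were tested too, and neither was called in any of the 7 comparisons (limma).

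The other 4 members were plainly present. Xdh had the highest median over the 22 mice, 68.6 CPM (36.4 to 101), which was above the median of 91.7% of the 15138 genes tested. Ltf followed with a median of 49.5 CPM (7.86 to 94.9), Csn3 with 44.6 CPM (13.6 to 134) and Btn1a1 with 9.14 CPM (1 to 19.6). The order within a mouse was not fixed: Ltf exceeded Csn3 in 9 of 22 mice, with a ratio between 0.254 and 2.26, and Xdh exceeded it in 15 of 22, with a ratio between 0.552 and 4.50. Btn1a1 was below Csn3 in every mouse, at 0.0411 to 0.432 of its level. Csn3 was thus the only casein gene of the cluster with a level to compare, at least 13.6-fold above the floor at which Csn1s1 and Csn2 lay in the same mice. The remaining protein-coding genes between the caseins, Csn1s2b, Prr27 and Odam, were at the floor in all 22 mice. An antisense gene, 1700066N21Rik, spans the whole of Csn3 on the opposite strand and was itself at the floor in every mouse; whether the counting used strand is not given in the sources used here, so reads of the pair could not be told apart. A processed pseudogene shares 662 bases with the span of Xdh on the same strand. No member had another gene matching 50 or more of its last 400 bases at 97% identity or above.

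**Figure D1:**
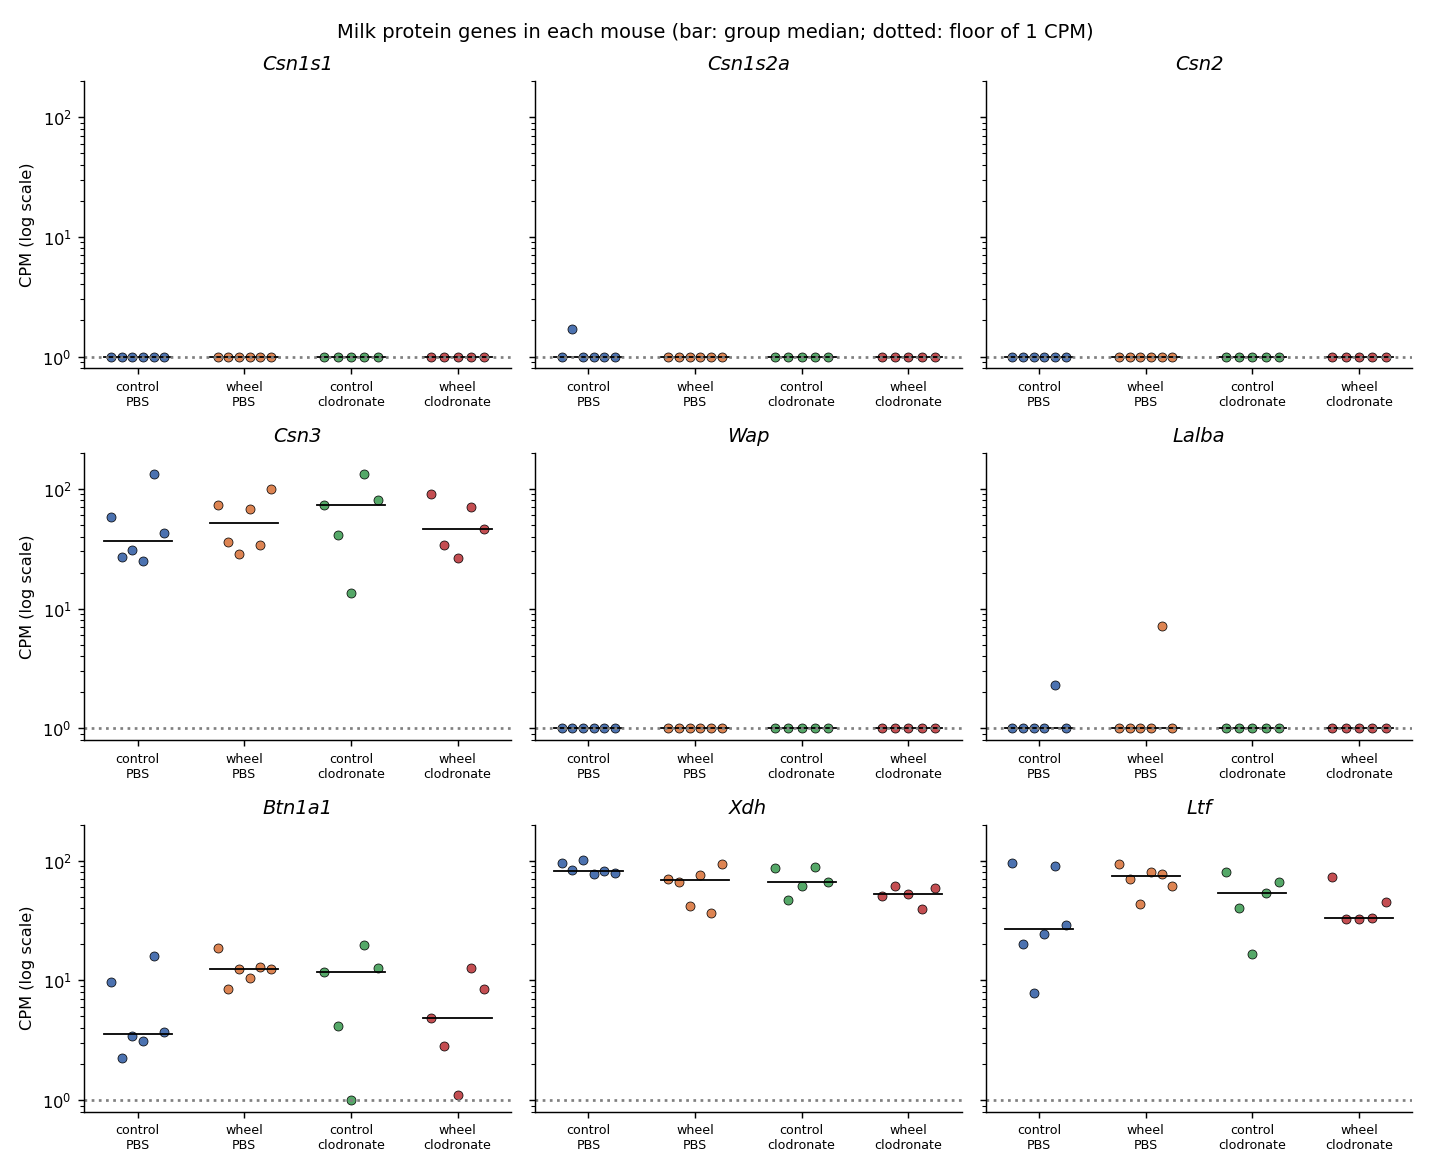
CPM (log axis) of the 9 milk protein genes in each of the 22 mice, by group; each point is 1 mouse, the black bar the group median and the dotted line the floor of 1 CPM. Csn1s1, Csn2 and Wap lie on the floor throughout, Csn1s2a and Lalba leave it in 1 and 2 mice, and Csn3, Btn1a1, Xdh and Ltf spread over the values given in the text with overlapping groups.

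Csn3, the casein that keeps the micelle in solution, ranged from 24.8 to 134 CPM (median 36.9) in the 6 control PBS mice and from 28.7 to 101 CPM (median 52.1) in the 6 wheel PBS mice. In the control clodronate mice it was 73.3, 41.4, 13.6, 133 and 80.3 CPM. In the wheel clodronate mice it was 91.4, 34.1, 26.6, 70.2 and 46.2 CPM. All 4 groups overlapped, and the lowest and nearly the highest mouse came from the same group, control clodronate.

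Btn1a1 ranged from 2.25 to 16.1 CPM (median 3.57) in the control PBS mice and from 8.50 to 18.8 CPM (median 12.5) in the wheel PBS mice. Of the 6 control PBS mice, 4 lay below the lowest wheel PBS mouse, and the remaining 2 (replicates 1 and 5, at 9.78 and 16.1 CPM) lay within the wheel PBS range. The control clodronate mice had 11.9, 4.15, 1, 19.6 and 12.7 CPM, replicate 3 being at the floor. The wheel clodronate mice had 4.82, 2.81, 1.09, 12.6 and 8.47 CPM, so that 4 of these 5 lay below the lowest wheel PBS mouse.

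Ltf ranged from 7.86 to 94.9 CPM (median 26.7) in the control PBS mice and from 43.6 to 94.4 CPM (median 73.8) in the wheel PBS mice. Again 4 of the 6 control PBS mice were below every wheel PBS mouse, while replicates 1 and 5, at 94.9 and 90.2 CPM, were among the highest of all. The control clodronate mice had 79.9, 40.3, 16.5, 53.5 and 65.9 CPM. The wheel clodronate mice had 72.9, 32.7, 32.6, 33.2 and 45.5 CPM.

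Xdh was the steadiest of the 4. It ranged from 77.0 to 101 CPM (median 82.3) in the control PBS mice and from 36.4 to 93.5 CPM (median 68.6) in the wheel PBS mice, of which 5 of 6 lay below the lowest control PBS mouse. The control clodronate mice had 87.0, 46.6, 61.2, 88.4 and 66.6 CPM. The wheel clodronate mice, the lowest group by median, had 50.4, 61.6, 52.7, 39.3 and 59.0 CPM.

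The members differed in how far mice of 1 group spread. The standard deviation within groups, on the log2(CPM + 1) scale with 18 degrees of freedom, was 0.90 for Csn3, 0.97 for Btn1a1 and 0.86 for Ltf, against a median of 0.46 over the 15138 genes tested. Those values exceeded the spread of 93.0%, 94.2% and 92.2% of the tested genes. Xdh had a standard deviation of 0.36, larger than that of 29.0% of tested genes. Set against genes within 0.5 of their own mean level only, the shares with a smaller spread were 97.7% for Csn3, 90.3% for Btn1a1, 96.9% for Ltf and 65.6% for Xdh.

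Csn3, Btn1a1 and Ltf varied together from mouse to mouse, while no pair with Xdh passed the test. Over the 22 mice, Pearson's r of log2(CPM + 1) between Csn3 and Btn1a1 was 0.76 (two-sided permutation test with 100000 resamples, p = 5e-05, adjusted p = 0.0003 over 6 pairs), and Spearman's rho was 0.77 (permutation p = 0.00011, adjusted p = 0.00066). Between Btn1a1 and Ltf, r was 0.73 (permutation p = 0.00013, adjusted p = 0.00039) and rho 0.71 (permutation p = 0.00034, adjusted p = 0.00102). Between Csn3 and Ltf, r was 0.66 (permutation p = 0.00072, adjusted p = 0.00144) and rho 0.69 (permutation p = 0.00056, adjusted p = 0.00112). Without the 2 mice farthest from the median of the gene named first, these r were 0.68, 0.71 and 0.57. Taken as deviations from group means, so that the design could not set them, they were 0.83, 0.67 and 0.71. Within single groups they were 0.95, 0.84 and 0.78 in control PBS mice and 0.99, 0.90 and 0.88 in control clodronate mice. The wheel groups gave lower values, 0.33, 0.30 and 0.44 with PBS and 0.70, 0.20 and 0.71 with clodronate liposomes. The 3 pairs with Xdh gave r of 0.26 with Csn3, 0.04 with Btn1a1 and -0.06 with Ltf (permutation p = 0.245, 0.876 and 0.775; rho 0.25, 0.04 and 0.07, permutation p = 0.261, 0.867 and 0.75; adjusted p of r = 0.367, 0.876 and 0.876). At the low end the shared mice were easy to see: control clodronate 3 was the lowest mouse for Csn3 and Btn1a1 and the second lowest for Ltf, after control PBS 3.

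The same 3 genes moved with the luminal epithelium of the sample. Scores of 6 marker lists, each the mean log2(CPM + 1) of its genes, were set against the 4 members, 24 relations in all, and 12 passed an adjusted p of 0.05. With the luminal epithelium score (Epcam, keratins, claudins and others; no member is in it), r was 0.76 for Csn3, 0.72 for Btn1a1 and 0.76 for Ltf (permutation p = 8e-05, 0.00025 and 7e-05; adjusted p over 24 = 0.00096, 0.0015 and 0.00096), with rho of 0.75, 0.76 and 0.71 (permutation p = 9e-05, 9e-05 and 0.00038). Without the 2 farthest mice, r was 0.67, 0.64 and 0.60, and in the 17 mice with a low lymphocyte score it was 0.72, 0.82 and 0.82. Within groups, r ran from 0.55 to 0.90 for Csn3 and from 0.48 to 0.96 for Ltf. For Btn1a1 it was 0.67 in control PBS, 0.94 in control clodronate and 0.83 in wheel clodronate mice, but 0.02 in wheel PBS mice. For Xdh, r with that score was 0.14 and rho 0.10 (permutation p = 0.539 and 0.67, adjusted p of r = 0.563). In bulk tissue, fewer cells of a type and less RNA per cell cannot be told apart, and neither can RNA of the mouse's own epithelium and of the engrafted cells.

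Xdh moved with the adipocyte markers of the sample. Its r with the adipocyte score was 0.68 and rho 0.70 (permutation p = 0.00061 and 0.00044, adjusted p = 0.00247 and 0.00264), and r was 0.67 without the 2 farthest mice and 0.66 in the 17 mice. Its r with the endothelium score was 0.50 (permutation p = 0.0177, adjusted p = 0.0425), which passed in 19 of 30 alternatives. For Ltf, r with the adipocyte score was 0.20 (permutation p = 0.364, adjusted p = 0.416). Csn3 and Btn1a1 had r of 0.52 and 0.49 with it (permutation p = 0.0143 and 0.0224, adjusted p = 0.0381 and 0.0448), which fell to 0.40 and 0.30 without the 2 farthest mice and no longer passed (adjusted p = 0.135 and 0.233). These calls turned on single mice, passing in 13 and 9 of the 22 repeats that left out 1 mouse, while on deviations from group means both passed (r = 0.63 and 0.51, adjusted p = 0.00552 and 0.0326). Csn3 with the endothelium score (r = 0.49, permutation p = 0.0205, adjusted p = 0.0448) fell to 0.37 without the 2 mice and passed in 12 of the 22 repeats. Btn1a1 with the basal epithelium score had r of -0.52 (permutation p = 0.0139, adjusted p = 0.0381). Without the 2 farthest mice r was again -0.52 but did not pass (adjusted p = 0.0501). Its rho, -0.39, did not pass either (permutation p = 0.0723, adjusted p = 0.0964), and r passed in 15 of the 22 repeats. The genes of the basal list spread unequally, Krt14 from 26.4 to 1946 CPM and Acta2 from 66.5 to 269 CPM. That score need not follow a single cell type.

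Lactoferrin is also stored in neutrophil granules, and the neutrophil markers were examined for that reason. They were low: 5 of the 10 genes passed the filter, Camp was at the floor in all 22 mice, Ngp was above it in 1, S100a8 reached 8.86 CPM and Mmp9 14.7 CPM, and the score of the 10 genes lay between 1.01 and 1.72, where 1 means every gene at the floor. Its r with Ltf was negative, -0.67 (permutation p = 0.00067, adjusted p = 0.00247; rho -0.65, permutation p = 0.00123), and so were those with Csn3, -0.67, and Btn1a1, -0.71 (permutation p = 0.00072 and 0.0002, adjusted p = 0.00247 and 0.0015). Without the 2 farthest mice these were -0.59, -0.49 and -0.58, of which that of Csn3 no longer passed (adjusted p = 0.0691). Within the wheel PBS mice r was 0.16 for Ltf and 0.43 for Btn1a1. It was negative for both in each other group, and for Csn3 in every group. With many values of these markers at the floor, the score is a poor measure of neutrophils. The cell source of the Ltf RNA was not tested. The lymphocyte score fell into 2 separate clusters of mice, so no r over all mice is given for it.

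**Figure D2:**
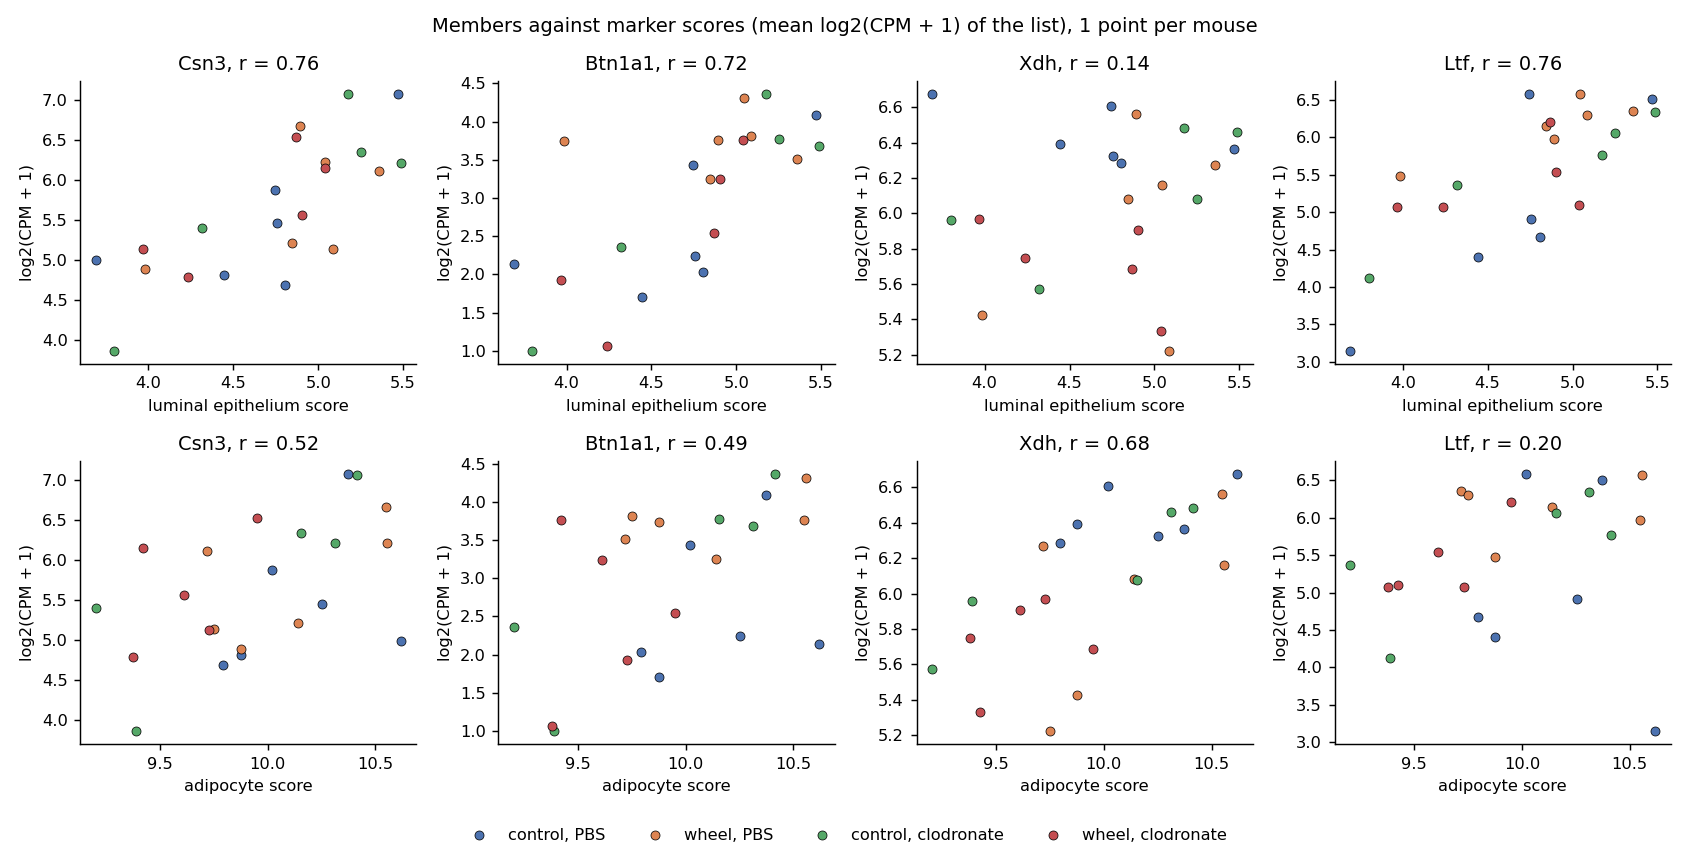
log2(CPM + 1) of Csn3, Btn1a1, Xdh and Ltf (vertical axes, each with its own range) against the luminal epithelium score (upper row) and the adipocyte score (lower row), both in mean log2(CPM + 1); each point is 1 of 22 mice, coloured by group. Csn3, Btn1a1 and Ltf climb with the luminal score (r 0.76, 0.72 and 0.76), and Xdh climbs with the adipocyte score (r 0.68).

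The genes whose values over the 22 mice were most like each member's, among all 15138 tested genes outside the list, are given as a description with no test, since the mice share their tissue composition. For Csn3 they were Lcn2 (lipocalin-2, an iron-scavenging secreted protein), Acta2 (smooth muscle actin) and Foxa1 (a luminal transcription factor), with r of 0.88, 0.87 and 0.87. Acta2 is also in the basal epithelium list, yet the score of that whole list went the other way with Csn3. Its r was -0.41 and did not pass (permutation p = 0.0564, adjusted p = 0.0903). For Btn1a1 they were Ccdc129, Wfdc18 (a small whey-acidic-protein-type secreted protein) and Krt19 (a luminal keratin), with r of 0.91, 0.84 and 0.82. For Ltf they were Kit (a receptor kinase found on luminal progenitors and mast cells), Ptn (the growth factor pleiotrophin) and Slc12a2 (a sodium, potassium and chloride cotransporter), with r of 0.86, 0.81 and 0.81. For Xdh they included Kank2 and Nnmt (nicotinamide N-methyltransferase, abundant in fat), with r of 0.87 and 0.86. No gene was shared between the 4 sets.

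Wheel running was compared with the hub control first in the mice with PBS liposomes, the question being whether activity before engraftment changed these genes. Of the 4 tested members, 0 were called at an adjusted p of 0.05 (limma with Benjamini-Hochberg adjustment over all 15138 genes), in a comparison that called 0% of all genes and had 744 genes at an unadjusted p under 0.05. Btn1a1 differed by 1.12 ± 0.52 (SE) on the log2(CPM + 1) scale, higher in wheel mice, with a 95% interval of 0.044 to 2.20 and an adjusted p of 0.987. Ltf differed by 1.10 ± 0.45 (interval 0.18 to 2.03, adjusted p = 0.987) and Csn3 by 0.22 ± 0.47 (interval -0.74 to 1.19, adjusted p = 0.993). Xdh lay the other way, at -0.49 ± 0.20 (interval -0.90 to -0.080, adjusted p = 0.987). The scale understates the differences of genes near the floor, such as Btn1a1. With the luminal epithelium score in the fit, which ranged from 3.69 to 5.47 in control PBS mice and from 3.98 to 5.36 in wheel PBS mice, the differences were 0.85 for Btn1a1, 0.84 for Ltf and -0.51 for Xdh (adjusted p = 0.961, 0.950 and 0.950), and that of Csn3 turned to -0.04 (adjusted p = 0.994). The score of 6 skeletal muscle markers ranged from 2.11 to 8.66 (median 5.58) in control PBS mice and from 1.84 to 5.33 (median 3.82) in wheel PBS mice. The low mice control PBS 3 and control clodronate 3 were at 8.66 and 8.32. The highest muscle scores were in other mice, control clodronate 2 at 11.7 and wheel clodronate 2 at 10.5. In those mice Csn3 was at 41.4 and 34.1 CPM, Ltf at 40.3 and 32.7 CPM and Btn1a1 at 4.15 and 2.81 CPM. All of these lay below the medians over the 22 mice, 44.6, 49.5 and 9.14 CPM. Whether muscle in the sample set these levels was not tested. With the muscle score in the fit, an alternative chosen after seeing the data, the differences were 0.78 for Btn1a1 (interval -0.20 to 1.77), 0.87 for Ltf (-0.011 to 1.76), -0.58 for Xdh and -0.03 for Csn3 (limma adjusted p = 0.842, 0.784, 0.706 and 0.996).

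With clodronate liposomes, 0 of the 4 members were called between wheel and control mice by limma, against 0.00661% of all genes (1 of 15138) and 1579 genes at an unadjusted p under 0.05. All 4 estimates were below 0, with intervals that span it. Btn1a1 was at -0.53 ± 0.57 (interval -1.71 to 0.65), Xdh at -0.38 ± 0.22 (-0.83 to 0.064), Csn3 at -0.15 ± 0.51 (-1.20 to 0.91) and Ltf at -0.14 ± 0.49 (-1.15 to 0.88), with adjusted p between 0.580 and 0.962. The signs for Csn3 and Ltf turned without the mice rich in lymphocyte markers, to 0.05 and 0.11. That fit kept only replicates 1 and 2 of the wheel clodronate group. Averaged over both liposomes, wheel running again called 0 of the 4 members and 0% of all genes, with 1224 genes at an unadjusted p under 0.05. Xdh was at -0.44 ± 0.15 there (interval -0.74 to -0.13, limma adjusted p = 0.557), and of the 4 members it alone had an interval that excluded 0, Csn3 being at 0.04 ± 0.35, Btn1a1 at 0.30 ± 0.39 and Ltf at 0.48 ± 0.33. The median adipocyte score was lower in wheel than in control mice, 10.0 against 10.1 with PBS and 9.61 against 10.2 with clodronate liposomes. With that score in the fit, also chosen after seeing the data, Xdh was at -0.34 (interval -0.59 to -0.085, limma adjusted p = 0.537).

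Clodronate was compared with PBS liposomes, the agent being one that kills phagocytes. The score of 6 macrophage markers overlapped between the groups: 4.02 to 4.61 (median 4.49) in control clodronate against 3.94 to 5.42 (median 4.76) in control PBS mice, and 3.70 to 4.92 (median 4.69) in wheel clodronate against 3.98 to 5.13 (median 4.76) in wheel PBS mice. In control mice 0 of the 4 members were called and 0% of all genes, with 1058 genes at an unadjusted p under 0.05 (limma). Csn3, Btn1a1 and Ltf had estimates of 0.30 ± 0.49, 0.43 ± 0.55 and 0.50 ± 0.47, and Xdh of -0.33 ± 0.21. In wheel mice 0 of the 4 members were called, against 0.00661% of all genes (1 of 15138), with 1759 genes at an unadjusted p under 0.05. Btn1a1 was at -1.22 ± 0.55 (interval -2.35 to -0.090, adjusted p = 0.386), Ltf at -0.74 ± 0.47 (-1.71 to 0.23, adjusted p = 0.583), Xdh at -0.23 ± 0.21 and Csn3 at -0.07 ± 0.49. Averaged over activity, clodronate called 31 of 15138 genes (0.205%), and 0 of the 4 members, with 1579 genes at an unadjusted p under 0.05. The averaged estimates were 0.11 ± 0.35 for Csn3, -0.40 ± 0.39 for Btn1a1, -0.28 ± 0.15 for Xdh and -0.12 ± 0.33 for Ltf.

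Whether the wheel difference itself depended on the liposome was tested as an interaction, which called 0 of the 4 members and 0% of all genes by limma, with 1147 genes at an unadjusted p under 0.05. Btn1a1 had the widest estimate, -1.65 ± 0.77 (interval -3.25 to -0.050, adjusted p = 0.649), followed by Ltf at -1.24 ± 0.66 (-2.61 to 0.14, adjusted p = 0.692). Csn3 was at -0.37 ± 0.69 and Xdh at 0.11 ± 0.29. The intervals of Csn3, Btn1a1 and Ltf reach differences of more than 1 on the log2 scale in at least 1 direction in every comparison except the averaged ones for Csn3 and the averaged clodronate one for Ltf, so that a missed call does not show that levels were alike. Upper-quartile scaling moved the median interaction of all genes from 0.09 to -0.01, and with it that of Xdh to -0.01.

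**Figure D3:**
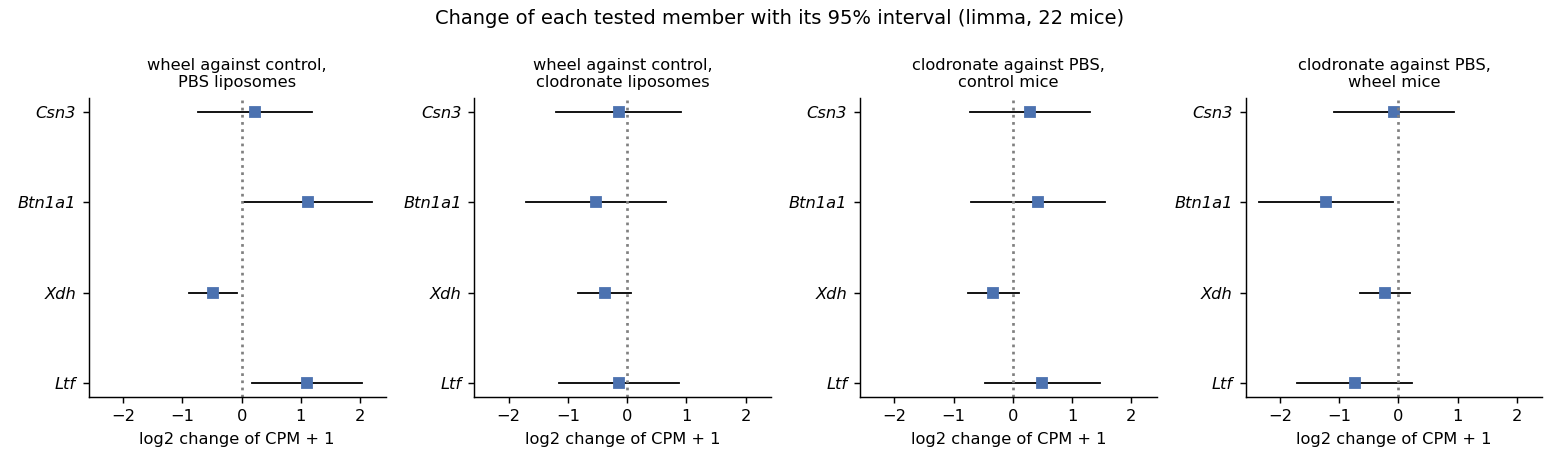
Difference in log2(CPM + 1) (horizontal axis) for Csn3, Btn1a1, Xdh and Ltf in the 4 comparisons between pairs of groups, squares giving the limma estimate and bars its 95% interval over 22 mice. Btn1a1 and Ltf lie at 1.12 and 1.10 for wheel against control with PBS liposomes and below 0 for clodronate against PBS in wheel mice, and no difference passed the adjusted threshold.

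The wider milk program was described by 3 further lists, of which 27 of 34 genes passed the filter. RNA for prolactin signalling and lactogenic control was present, all 10 genes of that list being above the floor in every mouse. Among them were the prolactin receptor Prlr (120 to 721 CPM), Stat5a (3.98 to 36.7 CPM), Stat5b (19.2 to 41.1 CPM), Jak2 (3.15 to 28.6 CPM), the glucocorticoid receptor Nr3c1 (57.9 to 134 CPM), the alveolar transcription factor Elf5 (2.35 to 16.4 CPM) and the STAT5 target Cish (2.15 to 23.7 CPM). Bulk RNA does not tell which cells of the sample held these transcripts. Of 16 other milk and secretory genes, 12 passed the filter, led by the fat-globule protein Mfge8 (144 to 731 CPM), and Csn1s2b and Olah were at the floor in every mouse. Of 8 antimicrobial and iron-binding secretory genes, 5 passed, led by transferrin, Trf (183 to 629 CPM), with Pigr and Bpifa1 at the floor in every mouse.

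Glycam1, a mucin of milk that is also made by the high endothelial venules of lymph nodes, exceeded 100 CPM in 5 mice. In all the other mice, whatever their group, it was at 1 to 4.78 CPM. Those 5 were the 5 mice with a lymphocyte marker score above 3, so that its values went with the lymph node markers of the sample. Its part in milk cannot be told apart from that in these data.

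**Figure D4:**
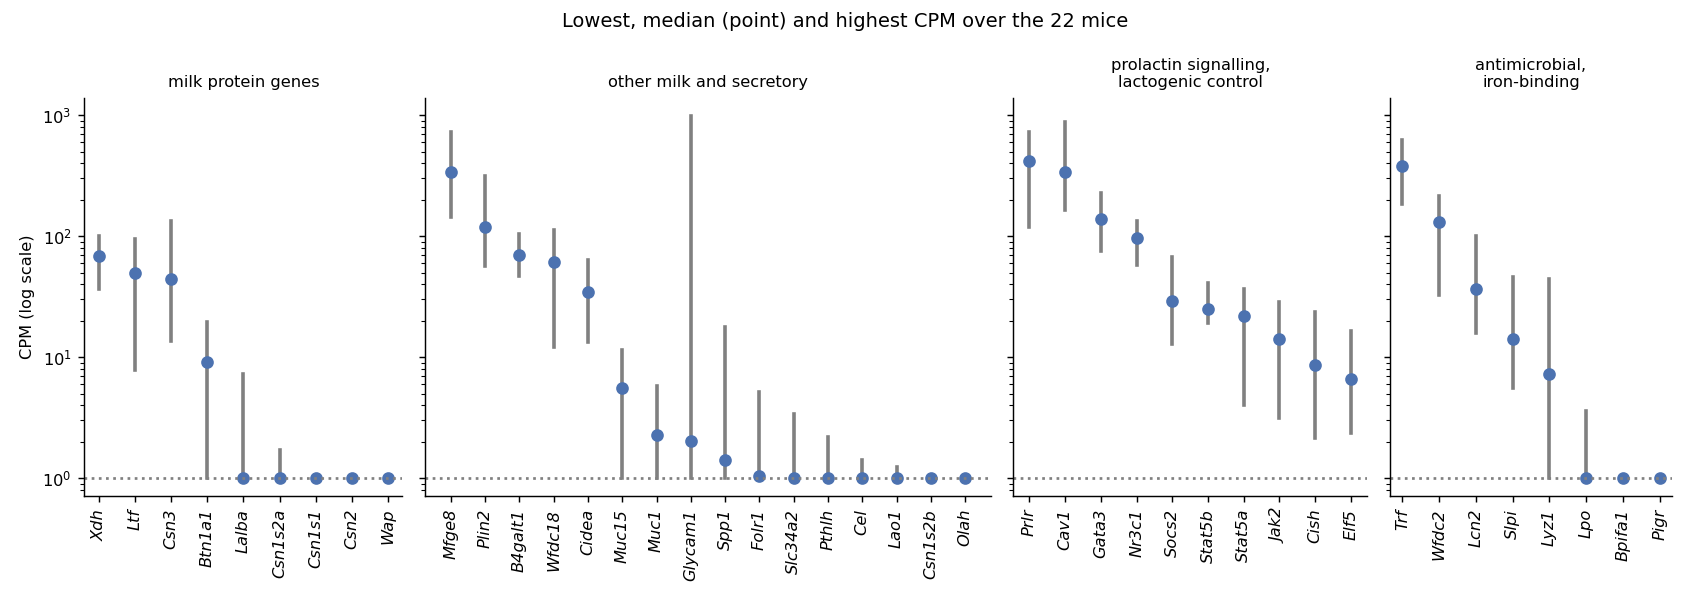
CPM (log axis) of the milk protein genes and of the 3 related lists; each bar runs from the lowest to the highest of 22 mice, the point is the median and the dotted line the floor of 1 CPM. Prolactin signalling genes lie above the floor in every mouse, while 5 of the 9 milk protein genes have their median on it.

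Of the 27 tested related genes, 0 were called in any of the 7 comparisons (limma, adjusted over all genes), beside the background shares given above. With PBS liposomes, the smallest p of each list for wheel against control belonged to Muc1 (-0.50 ± 0.28), Cav1 (-0.33 ± 0.26) and Lcn2 (0.73 ± 0.37), each with an adjusted p of 0.987 or 0.988. The median difference of the lists was 0.06, -0.05 and 0.55, against -0.08 over all tested genes. With clodronate liposomes the smallest p belonged to Pthlh (0.47 ± 0.10, adjusted p = 0.207), Cav1 (-0.68 ± 0.29, adjusted p = 0.388) and Lyz1 (1.20 ± 0.67, adjusted p = 0.574), and the list medians were -0.16, -0.15 and 0.19. For clodronate against PBS in control mice they were Plin2, Gata3 and Lcn2 (-0.58 ± 0.26, 0.44 ± 0.26 and 0.63 ± 0.38; adjusted p = 0.673, 0.764 and 0.770), and in wheel mice Pthlh, Cav1 and Slpi (0.47 ± 0.10, -0.66 ± 0.27 and -0.73 ± 0.38; adjusted p = 0.109, 0.345 and 0.476). Averaged over activity, Plin2, which coats the lipid droplets of milk-secreting cells and adipocytes alike, was at -0.67 ± 0.18 (adjusted p = 0.131).

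Pthlh, which encodes the parathyroid-hormone-related protein that lactating glands secrete and many carcinomas also make, was listed just above the floor in every mouse of 1 group. The 5 wheel clodronate mice had 1.93, 2.18, 1.82, 1.28 and 1.70 CPM, while the other 17 mice were at the floor apart from wheel PBS 1 at 1.00 CPM. This level is so near the floor that its fold change is not known. It met the filter on low values only through the wheel clodronate mice, while the other groups lay on the floor with almost no spread. Its p values thus depend on the floor, and no support for a change is drawn from them. Its adjusted p did not pass in the filtered table. With no filter it passed (adjusted p = 0.000407 against control clodronate and 0.000206 against wheel PBS, limma), under the same limit.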

How the data were processed

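QuantSeq 3′ FWD libraries of 22 mice were analysed. The submitters' processing notes list STAR 2.5.3a and GRCm38; the counting step is not given in the sources used here. The authors deposited, per the file values, a CPM signal for each gene, anything under 1 being raised to 1. Rows that name no gene (4) were left out: multimapping reads took 16.6% to 19.9% of the total, unmapped 4.13% to 8.66%, no feature 11.5% to 17.8% and ambiguous 0.484% to 0.615%. Groups came from the sample labels. The floor removes low counts, so log2(CPM + 1) was fitted with limma 3.58.1 in R 4.3.3 (4 group means, variance trend, 15138 genes exceeding the floor in 5 or more mice, Benjamini-Hochberg adjustment). Correlations used 100000 permutations, for members above the floor in at least 11 mice. Both steps were tested on simulated data. The members and lists were chosen with earlier results of these data known. Genes named were all members, any related gene called and otherwise the smallest p of each list, and the 3 genes most like each member, of which 1 is not reported here; Pthlh and Glycam1 were described further after their values were seen. Replicates are separate mice. Alternatives were pseudocounts, scalings, filters, covariates, the replicate block and left-out mice. 3′ ends were searched with blastn 2.17.0.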

Additional observations from a re-analysis of the deposited data

How the results depend on the processing

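The count of members called stayed at 0 in all 7 comparisons in each of the 249 counts from alternative fits, the smallest adjusted p of a member being 0.253 (Xdh, wheel averaged over liposomes, without wheel clodronate replicate 2). Replicate numbers are shared by different mice: the mean correlation of same-numbered deviations was -0.075 with PBS and 0.181 with clodronate, and the replicate block called 0 members. Of the 996 alternative values of the members' differences, 46 changed sign, none of them called, and the cause was not tested. With the luminal epithelium score in the fit, Csn3 turned to -0.0388 and 0.0999 for wheel against control with PBS and clodronate liposomes, to 0.246 for clodronate in wheel mice and to 0.139 for the interaction, and Ltf to 0.108 for wheel with clodronate. Without the mice rich in lymphocyte markers, wheel with clodronate turned to 0.0517 for Csn3 and 0.108 for Ltf, with only replicates 1 and 2 of the wheel clodronate group left. The replicate block gave 0.0191 for Csn3, clodronate in wheel mice, and upper-quartile scaling -0.0146 for the Xdh interaction. Of the fits added after seeing the data, that with the adipocyte score turned wheel with clodronate to 0.261 for Csn3 and 0.0144 for Ltf, clodronate in wheel mice to 0.633 for Csn3 and 0.0615 for Xdh, and averaged clodronate to 0.0744 for Btn1a1 and 0.0787 for Ltf; that with the skeletal muscle score turned Csn3 to -0.0278 (wheel, PBS liposomes), 0.177 (clodronate, wheel mice) and -0.167 (wheel, averaged), and Ltf to 0.0658 (clodronate, averaged). Leaving out each mouse, the differences that changed sign ran, for Csn3, from -0.625 to 0.174 (wheel, clodronate liposomes), from -0.0261 to 0.773 (clodronate, control mice), from -0.298 to 0.137 (clodronate, wheel mice), from -0.201 to 0.199 (wheel, averaged) and from -0.0502 to 0.349 (clodronate, averaged). For Ltf they ran from -0.487 to 0.0654 (wheel, clodronate liposomes) and from -0.311 to 0.0534 (clodronate, averaged), and for the Xdh interaction from -0.0409 to 0.227.

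All 3 member pairs (Csn3, Btn1a1 and Ltf) passed in each of the 30 alternatives. Of the 12 relations with marker scores, 6 passed in all 30, 1 in 29 and the other 5 in 15 to 22. The count of relations was 7 without the 2 farthest mice and 7 to 14 when each mouse was left out, being 7 without control PBS 4 or 5, wheel PBS 6, control clodronate 1 or 3, or wheel clodronate 2. With no filter on low values, 1 related gene, Pthlh, was called in 5 comparisons (wheel with clodronate liposomes, clodronate in wheel mice, both averages and the interaction). Those calls depend on the floor as described above, and no change is read from them. Without control clodronate 1, 1 related gene, Plin2, was called for clodronate averaged over activity (-0.76, adjusted p = 0.0371), and the other left-out mice gave 0. Over all genes, that comparison called 31 genes, but 0 without the mice rich in lymphocyte markers, 0 with the adipocyte score and 16 with the skeletal muscle score in the fit, 11 with the replicate block, 12 with upper-quartile scaling, 54 among genes with a mean of at least 5 CPM, and 12 to 146 when each mouse was left out. The fit without the mice rich in lymphocyte markers had fewer mice and so less power to call genes. Leaving out each mouse gave 0 to 240 genes for wheel with clodronate liposomes, 0 to 51 for clodronate in wheel mice and 0 to 38 in control mice, against 1, 1 and 0; the highest of these came without wheel clodronate 2 (240 and 51) and without control clodronate 1 (38, and the 146 above). Changes of Csn1s1, Csn1s2a, Csn2, Wap and Lalba below 1 CPM could not be seen, and the size of that of Pthlh is not known.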
